A study of Mus musculus with 6 samples.

Results

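Genes of proteasome subunits, activators and assembly factors were examined in heart ventricle RNA from WT C57BL/6J mice that had been fed a western diet (WD) for 15 weeks and were kept on it during treatment. The 3 mice of the WD + Tributyrin group were given Tributyrin, a triglyceride of butyrate, by needle feeding at 5 g/kg in cycles of 2 days on and 2 days off for 3 weeks, and the 3 mice of the WD + Vehicle group were given vehicle, which the labels call PBS. Both groups therefore shared the diet, the strain and the genotype, and the data hold no lean mice. The labels give no sex per mouse, and the Y-linked gene Ddx3y had between 1802 and 2241 normalized read counts in all 6 hearts. Members were the protein-coding genes whose symbol joins Psm, a letter from a to g and a number, without the interferon-induced Psmb8, Psmb9 and Psmb10. This rule gave 45 genes of 21906 protein-coding genes in the count files. The labels number the mice within a group and say no more of how they were housed or batched. The 6 libraries held between 20369746 and 32734485 counts on genes.

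The proteasome degrades proteins that carry ubiquitin chains. Its 20S core is a barrel of stacked alpha and beta rings with the cutting sites inside, and the 19S particle on its ends binds the ubiquitin chain, removes it and threads the substrate in with a ring of ATPases. In cardiac muscle it turns over sarcomere and signalling proteins, and the transcription factor NFE2L1 drives its subunit genes together through antioxidant response elements when degradation falls short.

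Promoter windows from RefSeq (GRCm38.p6, from 250 bases before to 50 bases after the start of transcription) were matched by symbol for 37 of the 45 genes. The antioxidant response element core, searched as TGACNNNGC on both strands, was in the windows of 6 of these 37 genes (16.2%), against 14% of all 27025 genes with a window. The letters CCAAT were in 13 of 37 (35.1%, against 41.1% of all genes) and the E-box CACGTG in 3 of 37 (8.11%, against 8.09%). No matches of different motifs overlapped in these windows. The core was found in the windows of Psmb5, Psmb6, Psmc6, Psmd12, Psmd9 and Psme4. The windows of the catalytic subunits Psmb5 and Psmb6 and of the activator Psme4, the most counted gene of the set, are shown, as the genes with this match whose product cuts substrates or that drew the most reads, Psme4 having long exons. Capitals mark the core on either strand.
Psmb5, chr14:54617946-54618245, minus strand: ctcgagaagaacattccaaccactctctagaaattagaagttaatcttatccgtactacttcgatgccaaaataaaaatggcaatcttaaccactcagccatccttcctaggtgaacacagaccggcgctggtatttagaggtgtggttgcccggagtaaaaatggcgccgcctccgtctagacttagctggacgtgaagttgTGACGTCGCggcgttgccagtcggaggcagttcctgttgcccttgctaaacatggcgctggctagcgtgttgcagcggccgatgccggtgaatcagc
Psmb6, chr11:70525107-70525406, plus strand: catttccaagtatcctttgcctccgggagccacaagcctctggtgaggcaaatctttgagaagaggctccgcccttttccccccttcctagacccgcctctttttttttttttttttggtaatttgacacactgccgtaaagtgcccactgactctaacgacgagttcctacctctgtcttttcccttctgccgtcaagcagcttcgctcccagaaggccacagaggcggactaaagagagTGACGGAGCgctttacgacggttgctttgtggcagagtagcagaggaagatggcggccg
Psme4, chr11:30771525-30771824, plus strand: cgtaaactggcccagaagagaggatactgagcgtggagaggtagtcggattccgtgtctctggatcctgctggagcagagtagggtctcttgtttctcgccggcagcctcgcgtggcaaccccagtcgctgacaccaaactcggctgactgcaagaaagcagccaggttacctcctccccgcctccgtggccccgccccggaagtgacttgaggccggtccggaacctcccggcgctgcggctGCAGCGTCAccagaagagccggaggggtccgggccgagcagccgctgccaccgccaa
The match began 47 bases before the start in Psmb5 and 9 bases before it in Psmb6, and it lay on the opposite strand 7 bases before the start in Psme4. The fitted log2 fold changes of these genes were 0.14, 0.07 and 0.08, which did not pass the test. A match of letters is a description and binding was not measured.

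No proteasome gene passed an FDR of 10% between WD + Tributyrin and WD + Vehicle. Of the 45 genes, 44 had enough counts to be tested, and only the thymus subunit Psmb11 did not. The quasi-likelihood test of edgeR, adjusted by Benjamini-Hochberg over all 14133 tested genes, gave 0 of 44 past an FDR of 10%, where 0% of all tested genes passed, and each adjusted p was 0.999. Without adjustment, 0 of 44 had a p under 0.05, where 4.25% of all tested genes passed (1.97% with higher and 2.28% with lower counts after Tributyrin). DESeq2 and limma-voom also gave 0 proteasome genes at either threshold. Of all genes, 1.8% had an unadjusted p under 0.05 with DESeq2 and 4.28% with limma-voom. Past an FDR of 10% were 11 of all genes with DESeq2 and 0 with limma-voom. The fitted log2 fold change was above 0 in 36 of 44 genes, where 49.6% of all tested genes were above 0, with a median of 0.06 against 0.00 for all tested genes. That direction depended on the scaling of the libraries, since with library size alone 19 of 44 were above 0 with a median of -0.01, while the median of all genes moved to -0.07. Relative to the median of all genes the members' median was 0.06 under both scalings. In bulk tissue a difference in the share of a cell type cannot be told apart from one in RNA per cell.

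**Figure D1:**
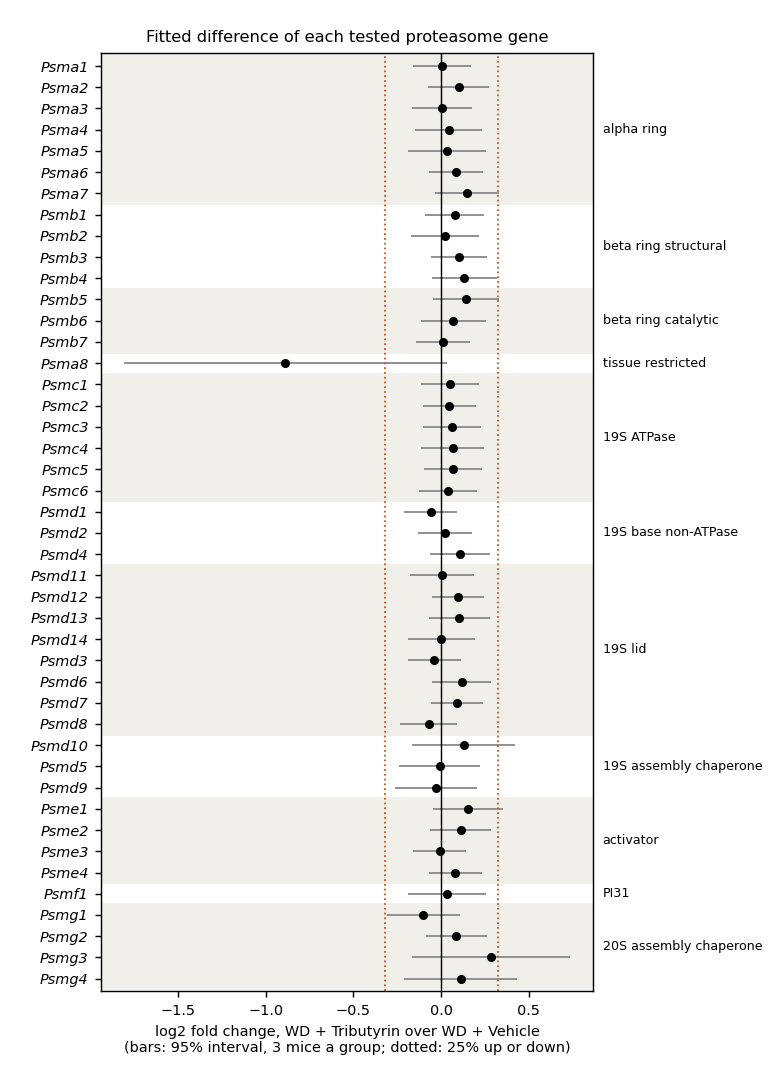
Fitted log2 fold change of WD + Tributyrin over WD + Vehicle (x axis) for each of the 44 tested proteasome genes (y axis, grouped by role), with TMM scaling. Points are the fitted values, bars the 95% intervals from 3 mice a group, and dotted lines a change of 25% up or the same fold down. In 37 of 44 genes the whole interval lies between the dotted lines, and Psma8 has by far the widest interval. The share of all tested genes within the lines was not computed.

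The intervals were narrow. In 37 of 44 genes the 95% interval of the fitted difference lay wholly within a change of 25% up or the same fold down on the TMM scale. The share of all tested genes within that bound was not computed. The median SE was 0.079 for the members and 0.121 for all tested genes. The count is therefore not read as a trait of the proteasome genes. The genes whose interval passed that bound were Psma7, Psmb5, Psme1, Psmd10, Psmg3, Psmg4 and Psma8, and the last is expressed at a few reads per library. Without Psma8, fitted values ran from -0.10 to 0.29. In normalized read counts each Tributyrin mouse was above every vehicle mouse in 3 of 44 genes, where 4.26% of all tested genes separated that way. The reverse held in 1 of 44, where 4.65% did. With 3 mice against 3 the exact permutation test gives no p below 0.1.

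The 7 alpha subunits form the outer rings of the core and its gate. All 7 had fitted log2 fold changes above 0 with TMM scaling, where 49.6% of all tested genes did. The values lay between 0.00 and 0.15 with a median of 0.04, and none passed the test. Psma7 (alpha4, chr2:180036374-180042433 in GRCm38) had the smallest p of the core. Its normalized read count was 2059, 1965 and 1818 in the vehicle mice and 2271, 1958 and 2236 in the Tributyrin mice. Tributyrin mice 1 and 3 were above all vehicle mice and mouse 2 lay among them. The means were 1947 ± 122 with vehicle and 2155 ± 172 with Tributyrin (SD), a log2 fold change of 0.15 (SE 0.08, unadjusted p = 0.104 by edgeR's quasi-likelihood test). Psma6 (alpha1) had the highest level per length of the ring. It was counted 2257, 2370 and 2328 times with vehicle and 2477, 2325 and 2572 times with Tributyrin, with mouse 2 again the lowest of its group (log2 fold change 0.09, SE 0.07). Psma3 (alpha7), the lowest of the ring, was counted 1270, 1153 and 1145 times with vehicle and 1232, 1119 and 1229 times with Tributyrin. Its groups overlapped throughout and the fitted value was 0.00 (SE 0.08).

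The beta rings hold the cutting sites. Among the structural subunits, Psmb4 (beta7) was counted 2839, 2906 and 2579 times with vehicle and 3095, 2742 and 3291 times with Tributyrin (log2 fold change 0.13, SE 0.08, unadjusted p = 0.145). Psmb3 (beta3) was counted 1317, 1378 and 1374 times with vehicle and 1480, 1363 and 1527 times with Tributyrin (0.10, SE 0.07, unadjusted p = 0.181). In both genes mice 1 and 3 of the Tributyrin group were above every vehicle mouse and mouse 2 was not. The chymotrypsin-like site is on Psmb5 (beta5), which was counted 1061, 1001 and 991 times with vehicle and 1167, 1004 and 1196 times with Tributyrin. The means were 1018 ± 37.8 and 1123 ± 104 (SD), a log2 fold change of 0.14 (SE 0.08, 95% interval -0.05 to 0.33). Psmb6 (beta1), with the caspase-like site, was counted 2704, 2767 and 2609 times with vehicle and 2870, 2509 and 3105 times with Tributyrin. Tributyrin mouse 2 was the lowest of all 6 mice and mouse 3 the highest, and the fitted value was 0.07 (SE 0.08). Psmb7 (beta2), with the trypsin-like site, was counted 1846, 1816 and 1830 times with vehicle and 1899, 1732 and 1908 times with Tributyrin (0.01, SE 0.07, 95% interval -0.14 to 0.17). The vehicle values of Psmb7 fell within those of the Tributyrin mice.

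**Figure D2:**
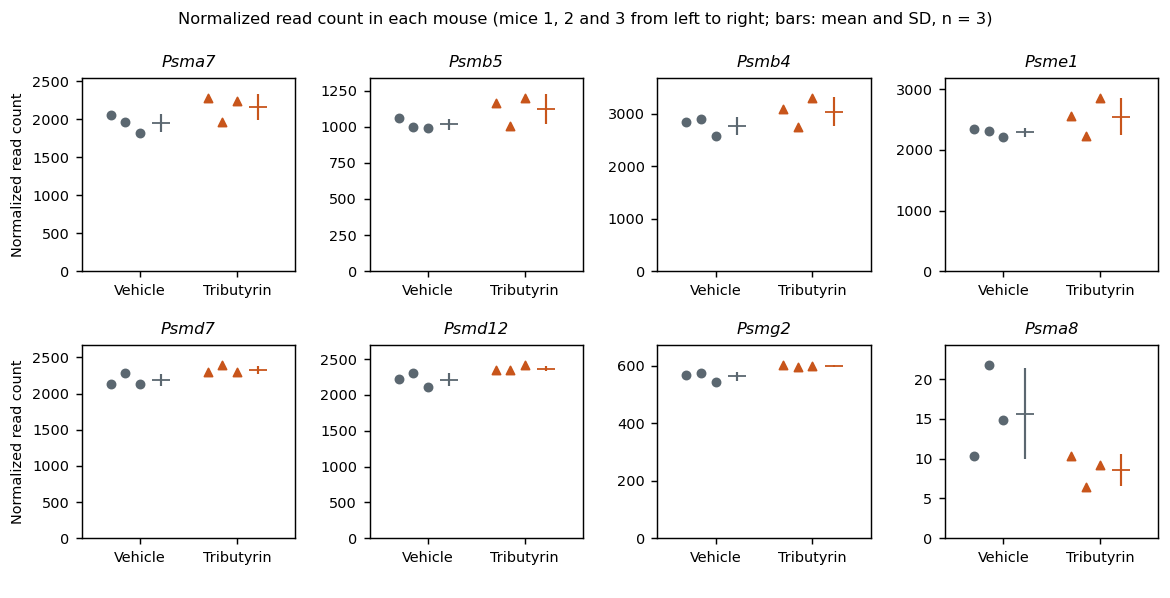
Normalized read count (y axes, from 0) of 8 proteasome genes in each mouse, with mice 1, 2 and 3 from left to right in each group and the mean and SD beside them. In Psma7, Psmb5, Psmb4 and Psme1 Tributyrin mouse 2 sits among the vehicle mice, while in Psmd7, Psmd12 and Psmg2 the groups do not overlap, and Psma8 is counted at most 21.7 times.

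The median over the core genes varied most among the Tributyrin mice. The deviation of a gene in a mouse was taken as its log2 CPM less its mean over the 6 mice, and the median over the 14 core genes was -0.03, -0.02 and -0.06 in the vehicle mice and 0.05, -0.08 and 0.14 in the Tributyrin mice. Tributyrin mouse 2 was thus the lowest of all 6 and mouse 3 the highest, and the SD of this median was 0.12 among Tributyrin mice against 0.02 among vehicle mice. Core genes have short transcripts, with the longest coding transcript under 1500 bases in 11 of 14. The same median over all 1666 tested protein-coding genes with a coding transcript under 1500 bases was -0.02, -0.02 and -0.04 with vehicle and 0.03, -0.07 and 0.14 with Tributyrin, and over 7102 genes with one over 3000 bases it was 0.01, 0.01, 0.03, 0.00, 0.04 and -0.06 in the same order. The short genes and the core genes ranked the 6 mice in the same order. The median fitted log2 fold change was 0.06 for the short genes, of which 69.3% were above 0, and -0.02 for the long ones, of which 40.8% were. Mitochondrial transcripts took 26.5%, 23.6% and 24.1% of the counts in the vehicle mice and 27.7%, 25.9% and 28.8% in the Tributyrin mice. The part of transcript length and of the mitochondrial share in the values of the core genes was not tested.

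**Figure D3:**
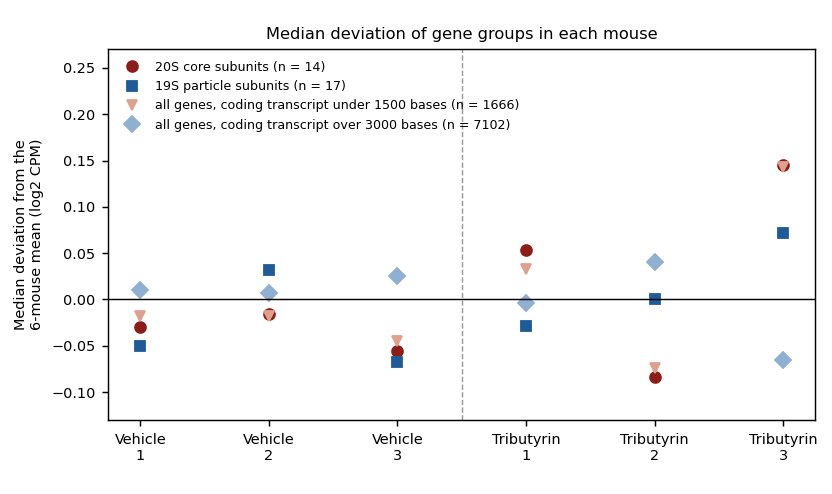
Median deviation from the mean of the 6 mice (y axis, log2 CPM) in each mouse (x axis) for the 14 core subunit genes, the 17 subunit genes of the 19S particle, and all tested protein-coding genes with short or long coding transcripts. The core genes and the short genes are nearly superimposed, lowest in Tributyrin mouse 2 and highest in Tributyrin mouse 3.

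Leaving out Tributyrin mouse 2 raised the number of proteasome genes with an unadjusted p under 0.05 from 0 to 6 of 44, namely Psma2, Psma7, Psmb4, Psmb5, Psme1 and Psmg3. In the same fit 9.56% of all genes passed that threshold, 0 proteasome genes passed an FDR of 10% and the smallest adjusted p among them was 0.39 by edgeR's quasi-likelihood test. The members' median was then 0.10, and it was 0.02 without Tributyrin mouse 3.

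The 19S particle genes followed another order of mice. The median deviation over its 17 subunit genes was -0.05, 0.03 and -0.07 in the vehicle mice and -0.03, 0.00 and 0.07 in the Tributyrin mice, so the groups overlapped and Tributyrin mouse 2 was not the lowest. The longest coding transcript was under 1500 bases in 3 of 17. None passed the test, and in all 17 genes the 95% interval lay within 25% up or the same fold down. No share of all tested genes stands beside that count. The 6 ATPases, Psmc1 to Psmc6, which unfold the substrate, had fitted values between 0.04 and 0.07 with TMM scaling. Psmc5 (Rpt6), whose level per length was within the spread of that of Psmc3 (151 ± 7.92 and 149 ± 7.54, SD over the 6 mice) and above it in 3 of 6 mice, was counted 2276, 2439 and 2344 times with vehicle and 2462, 2301 and 2634 times with Tributyrin (log2 fold change 0.07, SE 0.07). Psmc2 (Rpt1), the lowest per length of merged exons, was counted 2069, 2237 and 2148 times with vehicle and 2140, 2254 and 2270 times with Tributyrin (0.05, SE 0.07). In both the groups overlapped.

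The base also holds genes that are no ATPases. Psmd2 (Rpn1) and Psmd1 (Rpn2) are its large scaffold proteins, and Psmd4 (Rpn10) is a ubiquitin receptor. Psmd2 was counted 4832, 5414 and 5244 times with vehicle and 5091, 5362 and 5264 times with Tributyrin (0.02, SE 0.07). Psmd1 was counted 3067, 3154 and 3015 times with vehicle and 2858, 3108 and 2902 times with Tributyrin (-0.06, SE 0.07). Psmd4 was counted 1812, 1919 and 1714 times with vehicle and 1826, 1978 and 2071 times with Tributyrin (0.11, SE 0.08, unadjusted p = 0.185). The groups overlapped in each of these genes.

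The lid holds the deubiquitinase Psmd14 and its scaffold. Of its 8 genes that were members 6 had fitted values above 0 with TMM scaling, where 49.6% of all tested genes did. The range was -0.07 to 0.12. The lid protein Sem1 is no member by its symbol and lay above this range, as given further below. Psmd7 (Rpn8, chr8:107580381-107588464), the partner of Psmd14, was counted 2137, 2286 and 2136 times with vehicle and 2300, 2388 and 2297 times with Tributyrin. Psmd12 (Rpn5, chr11:107479484-107504362) was counted 2216, 2309 and 2117 times with vehicle and 2343, 2346 and 2411 times with Tributyrin. In normalized read count every Tributyrin mouse was above every vehicle mouse in both genes. The exact permutation p was 0.1, the smallest the design allows. Per length, as a share of all transcripts, the groups overlapped in both. Psmd7 was then at 81.7, 94.1 and 88.3 with vehicle and 85.4, 94.3 and 79.1 with Tributyrin. Psmd12 was at 72.3, 81.1 and 74.8 with vehicle and 74.3, 79.1 and 70.9 with Tributyrin. The fitted log2 fold changes were 0.09 (SE 0.07, unadjusted p = 0.204) for Psmd7 and 0.10 (SE 0.07, unadjusted p = 0.18) for Psmd12. Psmd6 (Rpn7) was counted 1397, 1416 and 1261 times with vehicle and 1483, 1398 and 1537 times with Tributyrin (0.12, SE 0.08, unadjusted p = 0.154). Psmd11 (Rpn6), the lowest lid gene per length of merged exons, was counted 1995, 2202 and 1893 times with vehicle and 1905, 2184 and 2022 times with Tributyrin, and its fitted value was 0.01 (SE 0.08).

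Activators dock on the core in place of the 19S particle. Psme1 and Psme2 encode the alternating PA28 subunits. Psme1 was counted 2351, 2305 and 2210 times with vehicle and 2561, 2232 and 2849 times with Tributyrin (log2 fold change 0.15, SE 0.09, unadjusted p = 0.115), and Tributyrin mouse 2 lay among the vehicle mice. Psme2 was counted 796, 872 and 916 times with vehicle and 958, 906 and 923 times with Tributyrin (0.11, SE 0.08), with overlapping groups. Psme4 (PA200), an activator linked to the degradation of acetylated histones, was the most counted member. It was counted 8977, 8694 and 9064 times with vehicle and 9896, 9462 and 8917 times with Tributyrin (0.08, SE 0.07). Psmf1 (PI31), which binds the core, was counted 559, 566 and 466 times with vehicle and 575, 515 and 543 times with Tributyrin (0.04, SE 0.10).

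Dedicated chaperones build both particles and leave before the proteasome is complete. Psmg1 to Psmg4 assist the alpha ring. Psmg2 (PAC2) was counted 569, 575 and 544 times with vehicle and 600.3, 595 and 598 times with Tributyrin, without overlap (exact permutation p = 0.1). Its fitted log2 fold change was 0.09 (SE 0.08). Psmg3 (PAC3) had the highest fitted value of the set, 0.29 (SE 0.20, unadjusted p = 0.191), from 71.7, 69.0 and 68.3 counts with vehicle and 88.8, 64.0 and 103 with Tributyrin, where mouse 2 was the lowest of all 6. The chaperones of the 19S base are Psmd5, Psmd9 and Psmd10. Psmd9 (p27) was counted 452, 430 and 427 times with vehicle and 446, 372 and 465 times with Tributyrin (-0.03, SE 0.11). The X-linked Psmd10 (gankyrin) was counted 224, 172 and 216 times with vehicle and 219, 207 and 241 times with Tributyrin (0.13, SE 0.13). The groups overlapped in both.

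The tissue-restricted subunits were nearly absent. Psma8, an alpha4 variant of the testis, had 10, 28 and 12 raw reads in the vehicle mice and 11, 7 and 8 in the Tributyrin mice. Scaled to library size factors these were 10.4, 21.7 and 14.9 against 10.3, 6.4 and 9.18, so the highest Tributyrin value lay just under the lowest vehicle value (exact permutation p = 0.1). The fitted log2 fold change was -0.89 (SE 0.42, 95% interval -1.81 to 0.03, unadjusted p = 0.0573), the smallest p of the set, from counts this low. Its unadjusted p was under 0.05 with library size alone and without vehicle mouse 1. Psmb11, the beta5 variant of the thymus, had 1 read in all 6 libraries together.

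Levels were compared between genes as counts per kilobase of merged exons, scaled so that all genes of a library sum to 1000000 units. Psma6 was highest with 169 ± 7.95 (SD over the 6 mice), followed by Psmc5 with 151 ± 7.92 and Psmc3 with 149 ± 7.54, and Psma6 was above Psmc5 in each of the 6 mice although their ranges over the mice overlapped. The medians were 60.3 for the 14 core genes and 60.7 for the 17 genes of the 19S particle. The core ran from 26.7 ± 1.36 (Psma3) to Psma6 and the 19S particle from 27.9 ± 2.97 (Psmd11) to Psmc5. Within the beta ring the catalytic genes were at 128 ± 5.97 (Psmb6), 104 ± 3.06 (Psmb5) and 46.9 ± 2.5 (Psmb7), and the difference between Psmb6 and Psmb4 at 130 ± 5.75 was within the spread over mice. Activators lay between 44.3 ± 3.62 (Psme2) and 95.5 ± 6.97 (Psme4). Chaperones and PI31 lay at 2.32 ± 0.300 (Psmg3) to 29.1 ± 1.49 (Psmg2) for the core chaperones, 5.19 ± 0.365 (Psmd9) to 12.6 ± 0.955 (Psmd10) for the 19S chaperones and 7.28 ± 0.585 for Psmf1. In all, 43 of 45 genes were over 1 unit and 9 over 100 units.

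**Figure D4:**
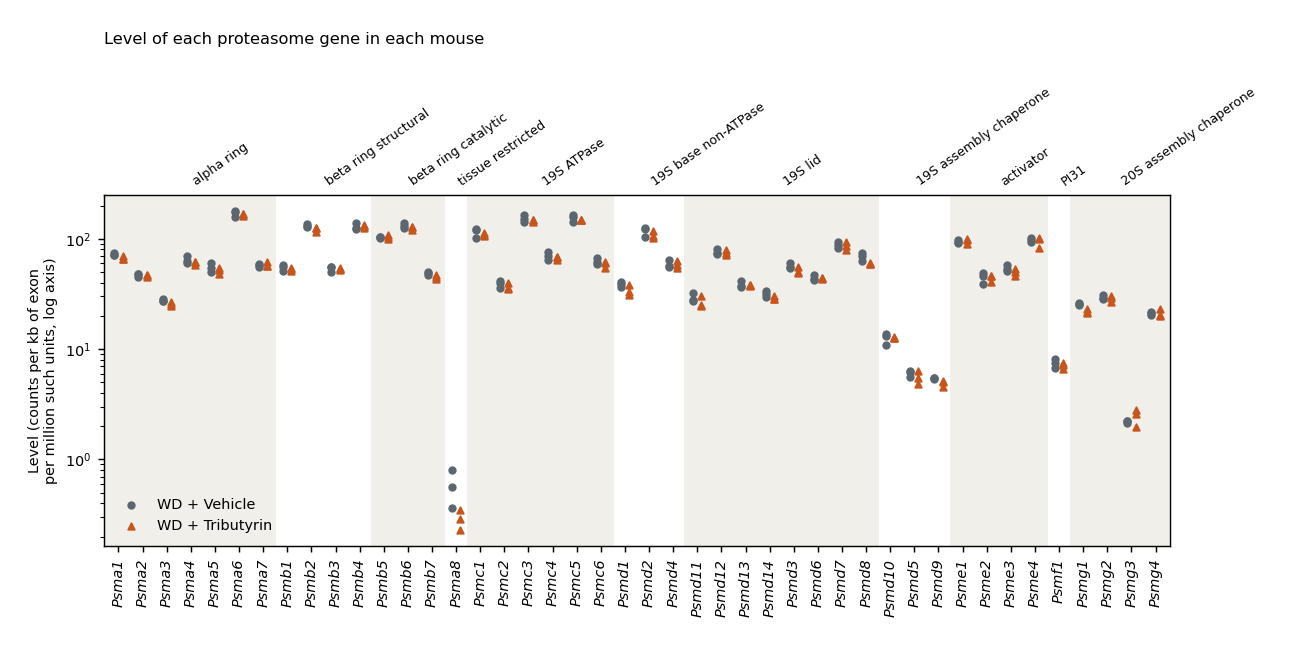
Level of each proteasome gene per length (y axis, log scale) in each mouse, grouped by role along the x axis; grey circles are WD + Vehicle and orange triangles WD + Tributyrin. Psmb11, with 1 read in all, is left out. Genes differ from each other far more than mice do, and by mean level Psma8, Psmf1 and all chaperones but Psmg2 lie below every subunit of the particles, while Psmg2 at 29.1 lies just above Psma3 and Psmd11.

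These levels depend on the length used. With the longest coding transcript in place of merged exons, Psmb6 was at 252, Psmb7 at 116, Psmb5 at 86.6, Psmc3 at 179, Psmc5 at 133 and Psma7 at 129 in place of 58.1, so the order of the genes is not fixed by these data. The unit is also a share of all transcripts, the mitochondrial ones included. On that scale 38 of 44 genes were lower and 6 higher with Tributyrin, which is the reverse of the fitted direction with TMM scaling. The share of all genes lower on that scale was not computed. With library size alone, which also keeps mitochondrial counts, the median log2 fold change of all genes was -0.07. The 38 are therefore not read as a result about the proteasome genes. Over all counts, the members held 0.328% ± 0.011 of the reads with vehicle and 0.324% ± 0.003 with Tributyrin (SD, n = 3 each), and these overlapped.

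Ratios within a mouse do not depend on the scaling between libraries, but they do depend on the length used, here merged exons. The summed level of the core over that of the 19S particle was 0.953, 0.902 and 0.924 in the vehicle mice and 0.982, 0.879 and 0.971 in the Tributyrin mice, so the lowest and the highest ratio were both in Tributyrin mice. The alpha ring over the beta ring was 0.759 ± 0.013 with vehicle and 0.751 ± 0.014 with Tributyrin. The 19S base over the lid was 1.86 ± 0.04 and 1.87 ± 0.03 (SD, n = 3 each), and the groups overlapped in both ratios. With the longest coding transcript as length, the core over the 19S particle was 1.07 ± 0.03 with vehicle and 1.10 ± 0.07 with Tributyrin. The base over the lid was then 1.58 ± 0.04 and 1.59 ± 0.02, and the groups again overlapped.

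Some members share sequence with other genes, which limits how their reads can be assigned. Of the 50-base words in the protein-coding transcripts, over 50% also occurred in another gene for Psmb3 (55.8%), Psma5 (55.4%), Psme2 (54.9%) and Psmb5 (54.1%). For Psme2 the other gene was the protein-coding Psme2b and for the others mostly pseudogenes. The share was over 20% for 9 genes. Psmb7 overlaps Nek6 on the opposite strand while Psmg3 and Psmd1 overlap Gm26938 and Gm21972 on the same strand. The levels of these genes, and of Psmd13, Psmc3 and Psme1, which overlap Sirt3, Slc39a13 and Emc9, are uncertain. Without the 9 genes, a choice made after seeing the data, the fitted value was above 0 in 27 of 35 genes under TMM scaling. The median was 0.07, and 49.6% of all tested genes were above 0.

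The immunoproteasome subunits Psmb8, Psmb9 and Psmb10 replace the catalytic ones in immune cells, and none passed the test. Psmb10 was counted 775, 834 and 748 times with vehicle and 721, 691 and 810 times with Tributyrin (log2 fold change -0.09, SE 0.09). Psmb8 was at 145, 170 and 149 against 162, 175 and 135 (0.03, SE 0.14) and Psmb9 at 111, 140 and 121 against 126, 150 and 131 (0.13, SE 0.15). Per length the level of Psmb10 was 39.1, that of Psmb8 4.04 and that of Psmb9 3.10. Macrophage markers summed to between 2025 and 2620 counts with vehicle and 1939 to 2497 with Tributyrin, and those of T and B cells to at most 27 counts.

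Of 10 factors that bind or assemble the proteasome 0 passed an FDR of 10%. Of the 10, 9 had fitted values above 0 with a median of 0.04, where 49.6% of all tested genes were above 0. Their summed counts were 16015 to 16255 with vehicle and 16723 to 16938 with Tributyrin, without overlap, and the sums were not tested. They rest on the DESeq2 size factors. Whether they separate with library size alone was not examined, and there the median log2 fold change of all genes was -0.07. Sem1, the smallest lid protein, was counted 1897, 1782 and 1779 times with vehicle and 2140, 1916 and 2137 times with Tributyrin, without overlap. Its log2 fold change was 0.18 (SE 0.07, unadjusted p = 0.0315, adjusted p = 0.999 by edgeR's quasi-likelihood test). Pomp, which matures the core, was counted 1693, 1765 and 1621 times with vehicle and 1946, 1683 and 1903 times with Tributyrin (0.12, SE 0.08). Of 8 tested genes for the control of proteasome transcription 0 passed, and the summed counts of that list overlapped between the groups. Nfe2l1, the factor named above, had 20102, 19402 and 18562 counts with vehicle and 20746, 19878 and 19360 with Tributyrin (0.05, SE 0.07). Of 16 genes for ubiquitin and its shuttles 0 passed an FDR of 10%. With TMM scaling 11 had fitted values above 0, where 49.6% of all tested genes did, and the median was 0.03. Their summed counts were 35629 to 36905 with vehicle and 37488 to 38110 with Tributyrin, without overlap, and these sums were not tested either. They rest on the same size factors, and other scales were not examined for them.

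The 6 cardiomyocyte marker genes summed to between 1341049 and 1374396 counts with vehicle and 1285840 to 1403040 with Tributyrin. Of these, Tnnt2 and Tnni3 had fitted values of 0.23 and 0.21 and Actc1 of -0.21, each with an unadjusted p under 0.05 and none past an FDR of 10%. The 4 atrial genes summed to 1409 to 4603 counts with vehicle and 800.4 to 1647 with Tributyrin. Of the 4, 3 had an unadjusted p under 0.05, where 4.25% of all tested genes did. Myl4 was at 1975, 2247 and 246 with vehicle and 267, 709 and 251 with Tributyrin, highest in vehicle mice 1 and 2, as were Myl7 and Sln. Nppa, of the same list, was at 554, 485 and 1046 with vehicle and 296, 416 and 731 with Tributyrin, highest in the mice numbered 3. The part of atrial RNA in the proteasome values was not tested. The summed markers of endothelium, fibroblasts, smooth muscle, red cells, fat cells and Schwann cells overlapped between the groups, and the brown fat gene Ucp1 was at 0 in each library. Among these markers the collagen gene Col1a1 had a log2 fold change of -0.46 (SE 0.17) and the smooth muscle myosin Myh11 of 0.59 (SE 0.17), each with an unadjusted p under 0.05 and neither past an FDR of 10%.

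**Figure D5:**
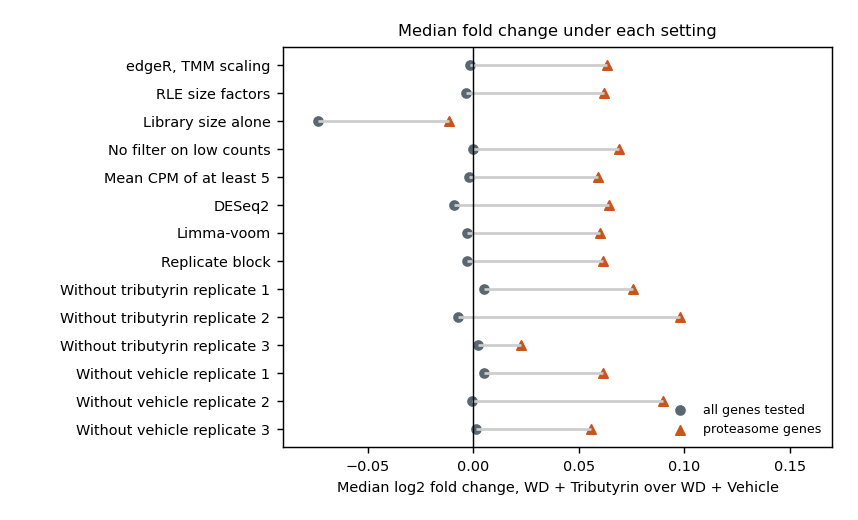
Median log2 fold change (x axis) of the tested proteasome genes (orange triangles) and of all tested genes (grey circles) under each scaling, filter, tool and left-out mouse (y axis). The members' median lies above that of all genes in each setting, below 0 with library size alone and at 0.02 without Tributyrin mouse 3.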

How the data were processed

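Stranded mRNA sequencing with single-end reads was done on heart ventricle RNA from 3 mice of each group. Adapters, poor reads and rRNA reads had been removed before alignment by STAR and counting by htseq-count. The authors deposited whole-number read counts per Ensembl gene, not normalized. The submitters' processing notes name cutadapt 1.13, STAR, HTSeq 0.6.1p1, DESeq2 1.14.1 and mm10. Neither the annotation release nor the strand setting is given in the sources used here. No line named no gene, and no column belonged to other samples. Symbols, lengths and positions came from GENCODE M21 (GRCm38), in which 54079 of 54232 identifiers matched. Paaf1 was not analysed here.

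The 6 libraries were fitted with edgeR 4.0.16 (R 4.3.3) by the quasi-likelihood test, with TMM scaling and no covariate, on genes kept by filterByExpr (at least 10 counts, total 15), and Benjamini-Hochberg adjustment at 10%. Intervals are at 95%. Normalized read counts were obtained by dividing each library by its DESeq2 1.42.0 size factor. The p-values of the fit set the difference between groups against the spread between the 3 mice of each group. The estimate of that spread draws on all tested genes as well as on the gene itself. Single genes were also compared by a two-sided exact permutation test. Alternatives were RLE size factors, library size alone, no filter, a mean CPM of at least 5, DESeq2, limma-voom (limma 3.58.1), a replicate block, each mouse left out, and the longest coding transcript as length. The TMM fit was also read without the genes that share over 20% of their words, with no new fit. The fits were tested on simulated data with known changes. Those changes were larger than any fitted value of the members, so differences as small as the members' were not covered. Plots and tables were made with Python 3.11.15, numpy 2.4.6, pandas 2.3.3 and matplotlib 3.10.9.

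Values by mouse are given for the 12 members with the smallest p, for Psmb5, Psmb6, Psmb7, Psma8 and Psmb11, and for the highest and lowest member per length of each role. In other lists of the pathway they are given for genes with an unadjusted p under 0.05, Nfe2l1, Pomp and the immunoproteasome. One such gene is not reported here. Ddx3y, Tnni3, Tnnt2, Actc1, Myl4, Myl7, Sln, Nppa, Col1a1 and Myh11 were named as markers. The members and lists were chosen with earlier results of these data known. Shared words were counted over 50 bases on either strand. Intervals from deeper libraries carry less counting error.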

Additional observations from a re-analysis of the deposited data

How the results depend on the processing

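Of 354 fitted values of 26 named proteasome genes under the alternatives, 332 kept their direction and their side of the FDR threshold and 22 changed direction. The 354 and the 332 include the TMM values read again without the genes that share over 20% of their words. That reading was no new fit, so its values could not change. No proteasome gene passed an FDR of 10% under any of the alternatives run. All genes past an FDR of 10% numbered 0 in the TMM fit, 167 without a filter and 11 with DESeq2. With the replicate number as a replicate block there were 2. The labels do not say whether the numbers pair the mice, and these values do not settle it. The same-numbered samples' deviations correlated at 0.21, 0.037 and 0.015, and 4 of 6 samples correlated best with their own number. Leaving out 1 mouse gave 0 to 3 such genes. With library size alone, 1 of 44 proteasome genes (2.27%) had an unadjusted p under 0.05, where 5.65% of all genes did. In that fit 19 were above 0 and the median was -0.0113. Leaving out 1 mouse gave 0 to 6 proteasome genes with an unadjusted p under 0.05. The 6 came without Tributyrin mouse 2, where 9.56% of all genes passed that threshold. Leaving out vehicle mouse 1 gave 1, Psma8, where 4.9% of all genes passed. The members' median ran from 0.02 to 0.10 and the number above 0 from 29 to 36 when a mouse was left out. The log2 difference between groups of the core over 19S ratio was 0.03, and -0.0028 to 0.0757 with a mouse left out.

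With library size alone the log2 fold changes of named genes that turned below 0 were -0.0674 for Psma3, -0.0046 for Psmb6, -0.0604 for Psmb7, -0.0266 for Psmc2, -0.0074 for Psmc5, -0.0518 for Psmd2, -0.0668 for Psmd11 and -0.0362 for Psmf1, against a median of -0.07 for all genes. When a mouse was left out, Psma3 ran from -0.0197 to 0.0598, Psmb7 from -0.0061 to 0.0556, Psmf1 from -0.0457 to 0.0852, Psmd9 from -0.0881 to 0.0601, Psmd11 from -0.0501 to 0.0675 and Psmd2 from -0.0186 to 0.0566. The causes of these changes were not tested. Depth limits what can be said of Psma8, Psmb11 and Psmg3, and 3 mice a group give wide intervals for genes of few counts.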
